A study of Mus musculus with 144 samples.

Results

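The mitochondrial carriers of the Slc25 family were followed in mouse liver. They were taken by name: every gene whose symbol is Slc25a followed by a number. This gave 48 of the 51912 genes counted, 47 of them protein-coding and 1 a pseudogene, Slc25a5-ps. The family was chosen with earlier results of these data known. RNA was sequenced from its 3′ end (QuantSeq, in which each read marks a transcript end, so that a count does not grow with transcript length). The livers came from male C57BL/6J mice, wild-type or Bmal1-/-, kept under a 12 h:12 h light-dark cycle and fed freely. Their ages are not given, and the labels name no driver or tissue for the loss of Bmal1, an activator of the circadian clock. Wild-type total, wild-type nuclear, wild-type polysomal and Bmal1-/- total RNA were each sampled at ZT2, ZT6, ZT10, ZT14, ZT18 and ZT22 (ZT0 is lights on) in 6 replicates, 36 libraries per series and 144 in all. Replicates are numbered in the labels, but whether each is a separate animal is not stated, so p-values measure the spread between these samples, which may be in part technical.

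Mitochondrial carriers are small proteins of the inner membrane that move metabolites between cytosol and matrix. They bring ADP and phosphate in for ATP synthesis and let ATP out, and in liver they also link the mitochondrial and cytosolic steps of the urea cycle, gluconeogenesis, fatty acid synthesis and fatty acid oxidation. Others supply cofactors, iron and glutathione to the matrix, and for several members the substrate is still debated. They are encoded in the nucleus, made on cytosolic ribosomes and imported into the inner membrane by the TIM22 route.

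Gene counts summed to between 1662449 and 14281894 per library, with a median of 6431391, and no pair among the 360 pairs of replicates held identical values. All 6 hepatocyte markers were detected throughout, with a summed level of 29748 to 88928 CPM (counts scaled to a library of 1000000, with TMM factors over all libraries) in wild-type total RNA and 28169 CPM or more in nuclear and Bmal1-/- RNA. In polysomal RNA the same sum ranged from 18495 to 77425 CPM. Some libraries stood apart. Xist, an RNA made from the inactive X chromosome of females, was above 100 CPM in 4 libraries at ZT22, all labelled male: 408 CPM in wild-type total RNA, 4363 in nuclear, 165 in polysomal and 491 in Bmal1-/- total RNA, against at most 5.67 in any other library. Xist levels were scaled to library totals without TMM factors. One wild-type total library, ZT2 replicate 4, held the highest of the 36 values for 8 of the 36 carriers tested and the lowest for another 8. Arntl, the gene that encodes Bmal1, had a higher count in the Bmal1-/- libraries (11.1 ± 2.72 CPM, SD, n = 36) than in wild-type total RNA (7.01 ± 5.66 CPM). Reads at the transcript end do not show a deletion elsewhere in the gene, so the higher mean does not check the deletion itself. Over time the labelled genotypes differed: in the wild type Arntl went from 0.864 CPM at ZT10 to 13.1 CPM at ZT22 with no overlap, and in Bmal1-/- libraries its time-point means lay between 9.08 and 12.5 CPM with overlap.

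Carrier transcripts summed to 2584 ± 193 CPM in wild-type total RNA (SD, n = 36, range 2262 to 3042). The 6 most abundant members made up 62.1% of that sum. Slc25a39, which brings glutathione into the matrix, led with 385 ± 81.0 CPM, followed by the phosphate carrier Slc25a3 (352 ± 31.2 CPM) and the ornithine/citrulline carrier of the urea cycle, Slc25a15 (282 ± 58.4 CPM). Next came Slc25a13, the aspartate/glutamate carrier of liver, with 251 ± 32.6 CPM. Slc25a47, a carrier found mainly in liver whose substrate is debated, reached 193 ± 89.97 CPM, and the calcium-regulated ATP-Mg/phosphate carrier Slc25a23 142 ± 51.5 CPM. The highest Slc25a23 value, 431 CPM, was that of ZT2 replicate 4. Slc25a3 varied least of these 6, between 292 and 416 CPM, while Slc25a47 ranged from 20.6 to 375 CPM, or from 47.6 CPM without ZT2 replicate 4.

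**Figure D1:**
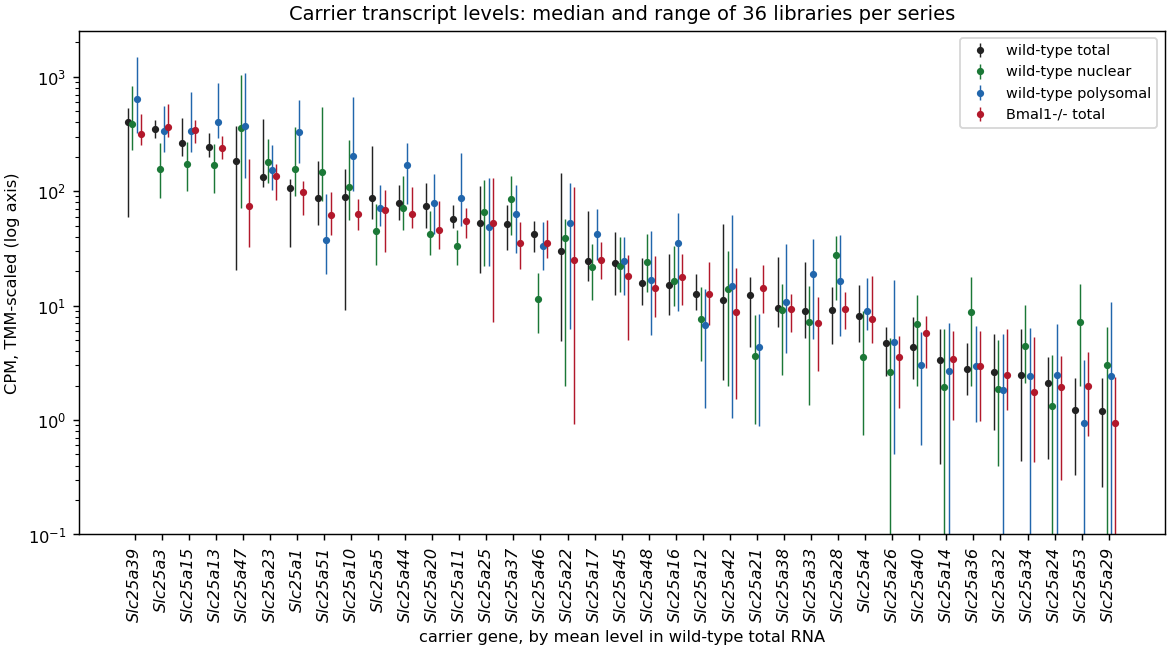
Level of 37 of the 38 carriers that could be tested, in CPM on a log axis, ordered by their mean in wild-type total RNA; points are medians of 36 libraries per series and bars run from the lowest to the highest library, cut at 0.1 CPM. Slc25a39 and Slc25a3 stand at the left with medians of 399 and 349 CPM in wild-type total RNA, and Slc25a29 at the right with 1.19 CPM.

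Of the 48 members, 38 averaged 10 or more counts over the libraries of at least 1 comparison and could be tested. The other 10 (Slc25a2, Slc25a18, Slc25a27, Slc25a30, Slc25a31, Slc25a35, Slc25a41, Slc25a43, Slc25a54 and Slc25a5-ps) were below 1 CPM on average in every series. Slc25a54 had no count in any of the 144 libraries. Several of these are the alternative forms of an abundant liver member: Slc25a31, the ADP/ATP carrier of germ cells, averaged 0.0733 CPM in wild-type total RNA, and the second ornithine carrier Slc25a2 0.197 CPM.

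Carriers that share a substrate differed widely in level. Among the ADP/ATP carriers, Slc25a5 (93.0 ± 33.6 CPM) was 11.1 times as abundant as Slc25a4 (8.38 ± 2.46 CPM) in wild-type total RNA and higher in 36 of 36 libraries, although both genes have near-identical copies elsewhere in the genome and their counts are uncertain to that extent. Slc25a13 was 19.3 times as abundant as the other aspartate/glutamate carrier, Slc25a12 (13 ± 2.55 CPM). The glutathione carriers stood further apart, with Slc25a39 at 90.4 times the level of Slc25a40 (4.26 ± 1.2 CPM). For each of these pairs the ranges of the 36 libraries did not overlap. The iron carriers mitoferrin 1 (Slc25a37, 52.5 ± 11.8 CPM) and mitoferrin 2 (Slc25a28, 9.91 ± 2.07 CPM) were 5.30-fold apart, also with no overlap. The coenzyme A carriers Slc25a16 (15.9 ± 4.59 CPM) and Slc25a42 (12.96 ± 8.42 CPM) overlapped, and Slc25a16 was the higher of the pair in 27 of 36 libraries. The pyrimidine nucleotide carriers changed places between fractions: Slc25a33 was 3.24 times as abundant as Slc25a36 in total RNA and 0.841 times as abundant in nuclear RNA, where it was higher in only 12 of 36 libraries.

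The first comparison asked how carrier levels differ without Bmal1, averaging over the 6 time points. Of 37 carriers tested, 16 were lower and 4 higher in Bmal1-/- than in wild-type total RNA, by edgeR's quasi-likelihood test with a Benjamini-Hochberg adjusted p under 0.05 over all 12082 genes tested. Of all those genes 44.1% were called, 21.7% lower and 22.4% higher. The median log2 change of the carriers was -0.13 and that of all genes 0.01. The 16 lower carriers included the fatty acid, NAD, iron, dicarboxylate and ADP/ATP carriers Slc25a20, Slc25a51, Slc25a37, Slc25a10 and Slc25a5. By substrate, 7 of the 12 carriers of acylcarnitine, cofactors and metals were lower and 1 higher, against 2 lower and none higher of the 8 tested carriers of adenine nucleotides, phosphate and pyrimidine nucleotides. Among the 6 tested amino acid carriers 1 was lower and 1 higher, and among the 4 carriers of di- and tricarboxylates 2 were lower and 1 higher. In bulk liver RNA, fewer cells of a type and less RNA per cell cannot be told apart. The libraries of the genotypes overlapped for all 37 carriers.

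The largest difference was that of Slc25a47. It ranged from 20.6 to 375 CPM with a median of 183 in wild-type libraries (from 47.6 CPM without ZT2 replicate 4), and from 32.4 to 189 CPM with a median of 73.6 in Bmal1-/- libraries. The upper part of the wild-type range lay beyond every Bmal1-/- library, while the lower parts overlapped. Its level was 2.19-fold lower without Bmal1 (log2 change -1.13, SE 0.15, edgeR adjusted p = 1.74e-09), and lower at all 6 time points. Replicates 1 to 3 alone gave a log2 change of -1.35 and replicates 4 to 6 of -0.95.

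Slc25a20, the carnitine/acylcarnitine carrier that brings long-chain fatty acids into the matrix for oxidation, ranged from 47.8 to 117 CPM with a median of 73.6 in the wild type, and from 31.2 to 82.1 CPM with a median of 46.1 in Bmal1-/- liver. The Bmal1-/- libraries lay mostly below the wild-type ones, with overlap in the middle. The log2 change was -0.66 (SE 0.08, edgeR adjusted p = 2.55e-11), lower at all 6 time points. Of 16 listed enzymes that make or use carried substrates, 8 were lower and 2 higher, beside 21.7% and 22.4% of all genes. Those with the smallest edgeR adjusted p were all lower. They were Cpt2, which remakes acyl-CoA inside the matrix (log2 change -0.46, SE 0.05), the carnitine acetyltransferase Crat (-0.95, SE 0.15) and Mdh2 (-0.39, SE 0.06). Cpt1a, which makes the acylcarnitine that Slc25a20 carries, was not among these.

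Slc25a51, the NAD carrier, ranged from 50.4 to 184 CPM (median 87.4) in the wild type and from 41.3 to 97.8 CPM (median 61.7) without Bmal1. Wild-type libraries reached well above the Bmal1-/- range but began only slightly above it. The log2 change was -0.51 (SE 0.08, edgeR adjusted p = 1.13e-07). Slc25a5 was lower by -0.49 (SE 0.09, edgeR adjusted p = 4.23e-06) and Slc25a44, the branched-chain amino acid carrier, by -0.31 (SE 0.05, edgeR adjusted p = 5.63e-07). Also below wild type were Slc25a45, Slc25a42, Slc25a33, Slc25a26, Slc25a39, Slc25a46, Slc25a48 and Slc25a1, with log2 changes from -0.49 to -0.15. Slc25a1, the citrate carrier that supplies cytosolic acetyl-CoA for lipid synthesis, was the closest to the threshold (edgeR adjusted p = 0.0483). Without the libraries with Xist its edgeR adjusted p was 0.0674 and Slc25a48 was lost too, and without wild-type ZT2 replicate 4 Slc25a42 and Slc25a48 were lost.

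For several of the lower carriers the difference depended on which replicates were used. Slc25a33 and Slc25a42 were not called in replicates 1 to 3, and, among others, Slc25a39 and Slc25a46 not in replicates 4 to 6. Slc25a1 and Slc25a48 were called in neither set. For Slc25a10 and Slc25a37 the size of the difference depended on the replicates too, and some marker transcripts of another cell type moved with it. Slc25a10, the dicarboxylate carrier, is abundant in fat as well as in liver. It averaged 116 ± 29.2 CPM in wild-type replicates 1 to 3 (total RNA, n = 18) and 71.0 ± 20.6 CPM in replicates 4 to 6 (n = 18), and 63.4 ± 8.09 and 64.1 ± 9.77 CPM in the same replicates of Bmal1-/- RNA. The log2 change was -0.55 (SE 0.10, edgeR adjusted p = 1.49e-05) over all replicates, -0.88 (edgeR adjusted p = 2.27e-09) in replicates 1 to 3 and -0.13 (edgeR adjusted p = 0.513) in replicates 4 to 6. All 5 adipocyte markers were found. Their summed level had a median of 39.01 CPM (9.88 to 145) in wild-type replicates 1 to 3, 12.5 CPM (6.63 to 25.6) in wild-type replicates 4 to 6 and 9.86 CPM (3.29 to 20.2) in Bmal1-/- libraries. Adipoq and Plin1 had a median of 0 in each of these, and Cfd in wild-type replicates 4 to 6 and in Bmal1-/- libraries. Single markers were scaled to library totals without TMM factors. Their mean levels in wild-type and Bmal1-/- total RNA were 12.4 and 0.190 CPM for Cfd, 2.50 and 0.220 CPM for Cidec and 12.8 and 10.7 CPM for Fabp4. Adipoq and Plin1 were below 0.1 CPM in both and not lower without Bmal1. In nuclear RNA Slc25a10 also averaged more in replicates 1 to 3 (169 ± 71.5 CPM) than in replicates 4 to 6 (85.0 ± 19.5 CPM), beside adipocyte sums with medians of 60.0 and 6.97 CPM. In polysomal RNA the order was the opposite, with 161 ± 47.1 and 320 ± 161 CPM, and so was that of the adipocyte sums, with medians of 7.53 and 16.8 CPM. Polysomal replicate numbers may not stand for the same animals as those of total and nuclear RNA: the ZT22 library with Xist was replicate 1 in polysomal and replicate 5 in total and nuclear RNA. Whether adipocytes were present, and whether they had a part in the Slc25a10 difference, was not tested.

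Slc25a37 imports iron for heme synthesis and is most abundant in erythroid cells. It ranged from 30.7 to 76.2 CPM (median 51.4) in the wild type and from 21.0 to 54.0 CPM (median 35.0) in Bmal1-/- libraries, with overlap between 30.7 and 54.0 CPM. The log2 change was -0.52 (SE 0.07, edgeR adjusted p = 2.85e-09), and it was -0.85 in replicates 1 to 3 and -0.22 (edgeR adjusted p = 0.0342) in replicates 4 to 6. The summed level of all 5 erythroid markers, none at a median of 0, had a median of 3543 CPM in wild-type replicates 1 to 3, 1935 CPM in wild-type replicates 4 to 6 and 1464 CPM (26.0 to 5346) over the Bmal1-/- libraries. Their part in the Slc25a37 difference was not tested. The same holds for Slc25a39, whose log2 change was -0.25 (SE 0.07).

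Higher without Bmal1 were Slc25a15, Slc25a21, Slc25a40 and Slc25a53. Slc25a15, the ornithine/citrulline carrier, ranged from 202 to 438 CPM (median 264) in the wild type and from 261 to 420 CPM (median 340) in Bmal1-/- liver. The Bmal1-/- libraries sat in the upper part of the wild-type range, and the mean was higher at all 6 time points (log2 change 0.28, SE 0.06, edgeR adjusted p = 1.73e-05). It was 0.20 with an edgeR adjusted p of 0.0811 in replicates 4 to 6 alone. Slc25a21, which carries 2-oxoadipate from lysine and tryptophan breakdown, ranged from 4.32 to 17.9 CPM (median 12.3) in the wild type and from 8.64 to 22.4 CPM (median 14.3) without Bmal1. Its log2 change of 0.36 (SE 0.09, edgeR adjusted p = 0.000663) came from replicates 4 to 6, which gave 0.76 (edgeR adjusted p = 1.42e-07), while replicates 1 to 3 gave -0.01 (edgeR adjusted p = 0.943). The glutathione carrier Slc25a40 (0.37, SE 0.09) and Slc25a53, whose substrate is not assigned (0.69, SE 0.14), had few counts, with means of 39 and 14 per library. Slc25a40 was not called in replicates 1 to 3 alone.

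**Figure D2:**
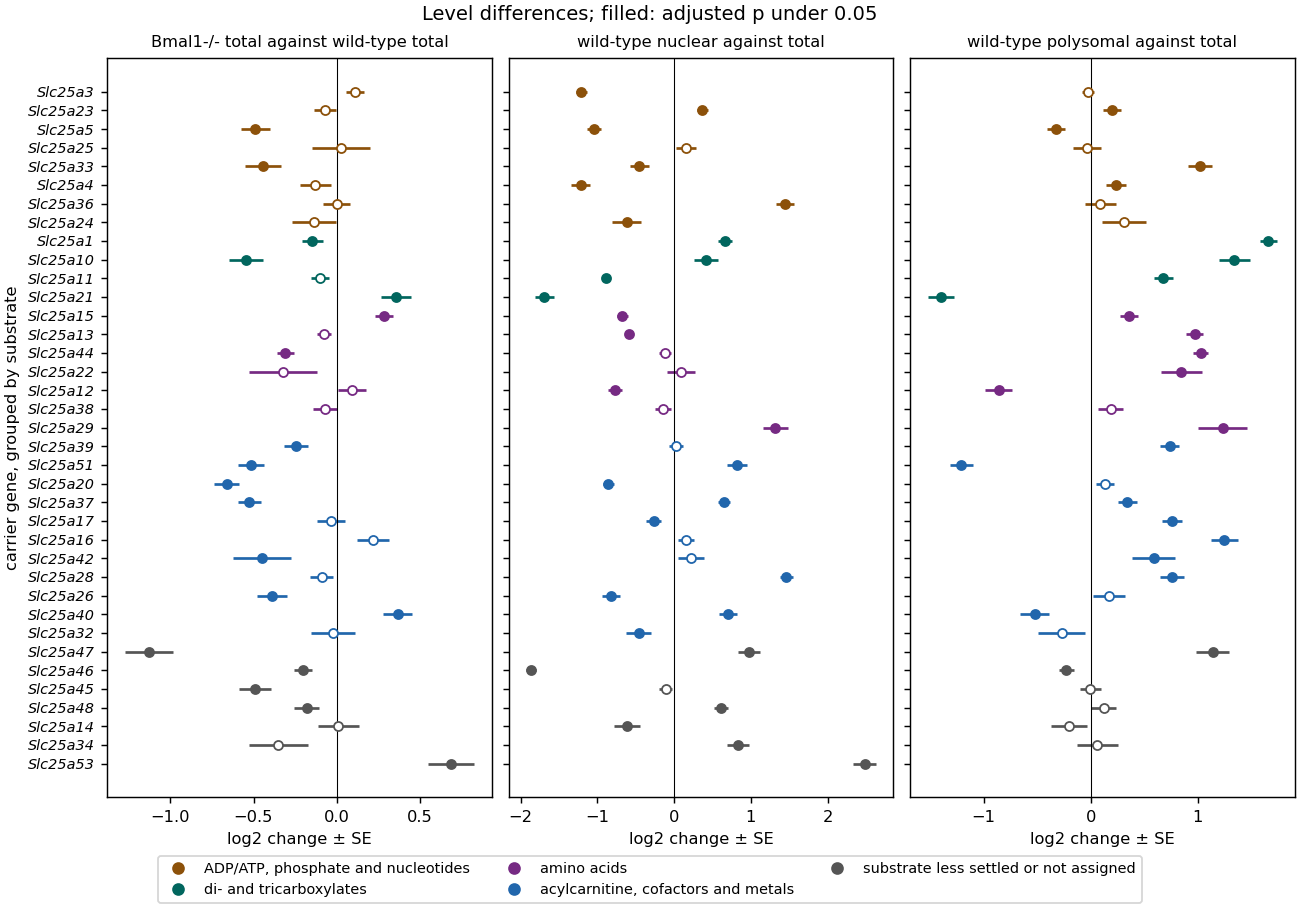
Log2 change with its standard error for up to 37 tested carriers in each of 3 comparisons with wild-type total RNA (Bmal1-/- total, nuclear and polysomal), coloured by substrate, filled where the edgeR adjusted p is under 0.05. Most filled points of the first panel lie left of 0, with Slc25a47 furthest at -1.13, and 18 of the 24 filled points of the third lie right of it.

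Over the day, 6 of 36 carriers tested in wild-type total RNA had a 24 h rhythm by the edgeR test (adjusted p under 0.05), beside 18.9% of all genes tested, and 13 had an unadjusted p under 0.05. The median fitted peak-to-trough ratio was 1.33 for the carriers and 1.25 for all genes. Slc25a47 had the widest rhythm. Its mean was 109 ± 55.1 CPM at ZT2 (SD, n = 6), 255 ± 34.9 at ZT6, 320 ± 44.1 at ZT10, 186 ± 55.4 at ZT14, 161 ± 62.3 at ZT18 and 123 ± 62.8 at ZT22. The 6 libraries of ZT10 lay between 250 and 375 CPM, above all those of ZT2, ZT18 and ZT22, the highest of which was 248 CPM. The fitted peak-to-trough ratio was 2.60 (log2 1.38, SE 0.28), with a peak at ZT10.1 in the late light phase (edgeR adjusted p = 0.00145). It was called in replicates 1 to 3 and missed the threshold in replicates 4 to 6, at log2 1.10 (edgeR adjusted p = 0.0101) and 1.78 (edgeR adjusted p = 0.0705).

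Slc25a44 had a smaller rhythm with a later peak. Its mean was 73.9 ± 13.8 CPM at ZT2, 68.2 ± 6.59 at ZT6, 75.2 ± 12.1 at ZT10, 88.6 ± 11.3 at ZT14, 95.9 ± 12.9 at ZT18 and 79.4 ± 9.86 at ZT22. The libraries of ZT18 (78.6 to 114 CPM) lay just above those of ZT6 (58.4 to 78.4 CPM). The fitted ratio was 1.38 (log2 0.46, SE 0.09), with a peak at ZT17.3 in the dark phase (edgeR adjusted p = 0.00171).

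Of the other rhythmic carriers, Slc25a51 and Slc25a13 had fitted peaks early in the dark phase. Their highest time-point means were at ZT10, in the light phase. Slc25a51 averaged 71.7 ± 23.2 CPM at ZT2 and 120 ± 29.98 CPM at ZT10, with a fitted ratio of 1.63 and a peak at ZT14.9 (edgeR adjusted p = 0.0192). Slc25a13 had a ratio of 1.21 with a peak at ZT14.4 (edgeR adjusted p = 0.0433). Slc25a23 peaked at ZT0.30 with a ratio of 1.42 (edgeR adjusted p = 0.0464).

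These rhythms depended on the libraries that stood apart. Without wild-type ZT2 replicate 4, which was chosen for omission after its values were seen, 9 carriers were rhythmic. Slc25a11, Slc25a21, Slc25a38 and Slc25a39 were gained, 1 was lost, and the log2 peak-to-trough of Slc25a23 went from 0.50 to 0.25 with a peak at ZT22.4. Without the libraries with Xist, 5 were rhythmic, with Slc25a13 and Slc25a23 lost and Slc25a11 gained. Slc25a47, Slc25a44 and Slc25a51 were called in both of these fits. Slc25a44 was not called in replicates 1 to 3 alone, nor Slc25a51 in replicates 4 to 6 alone. With all 4 series in one fit, neither Slc25a44 nor Slc25a51 was called.

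In Bmal1-/- total RNA, none of 37 carriers had a rhythm past the threshold by edgeR, 1 had an unadjusted p under 0.05 (Slc25a21), and DESeq2 also called none; 0.00825% of all genes, a single gene, were called there. Slc25a47 stayed between means of 69.5 ± 30.96 CPM (ZT6) and 99.2 ± 45.7 CPM (ZT2). At ZT10 its Bmal1-/- libraries ran from 32.4 to 161 CPM, all below the wild-type ones, and there was no overlap at ZT6 or ZT14 either. At ZT2, where the wild type was lowest, the means were 99.2 and 109 CPM and the ranges overlapped. Slc25a44 in Bmal1-/- liver averaged 57.1 ± 8.64 CPM at ZT18, its lowest point, with all 6 libraries (47.6 to 66.7 CPM) under the wild-type range of that time. At ZT6 the genotypes overlapped, with 65.1 ± 10.4 CPM in Bmal1-/- and 68.2 ± 6.59 CPM in wild-type liver.

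The difference in rhythm between genotypes was itself tested. It passed for 2 of 37 carriers, beside 5.18% of all genes: Slc25a44 (edgeR adjusted p = 0.00542) and Slc25a47 (edgeR adjusted p = 0.0132). In all, 4 carriers had an unadjusted p under 0.05, the others being Slc25a37 and Slc25a51, and the edgeR adjusted p of Slc25a51 was 0.128. In replicates 1 to 3 alone neither difference passed, with edgeR adjusted p of 0.736 for Slc25a44 and 0.544 for Slc25a47. In replicates 4 to 6 that of Slc25a44 passed (0.00758 by the same edgeR adjustment) and that of Slc25a47 did not (0.0689). For Slc25a51, Slc25a23 and Slc25a13, a rhythm called in the wild type and not in Bmal1-/- RNA is therefore not shown to differ between them.

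**Figure D3:**
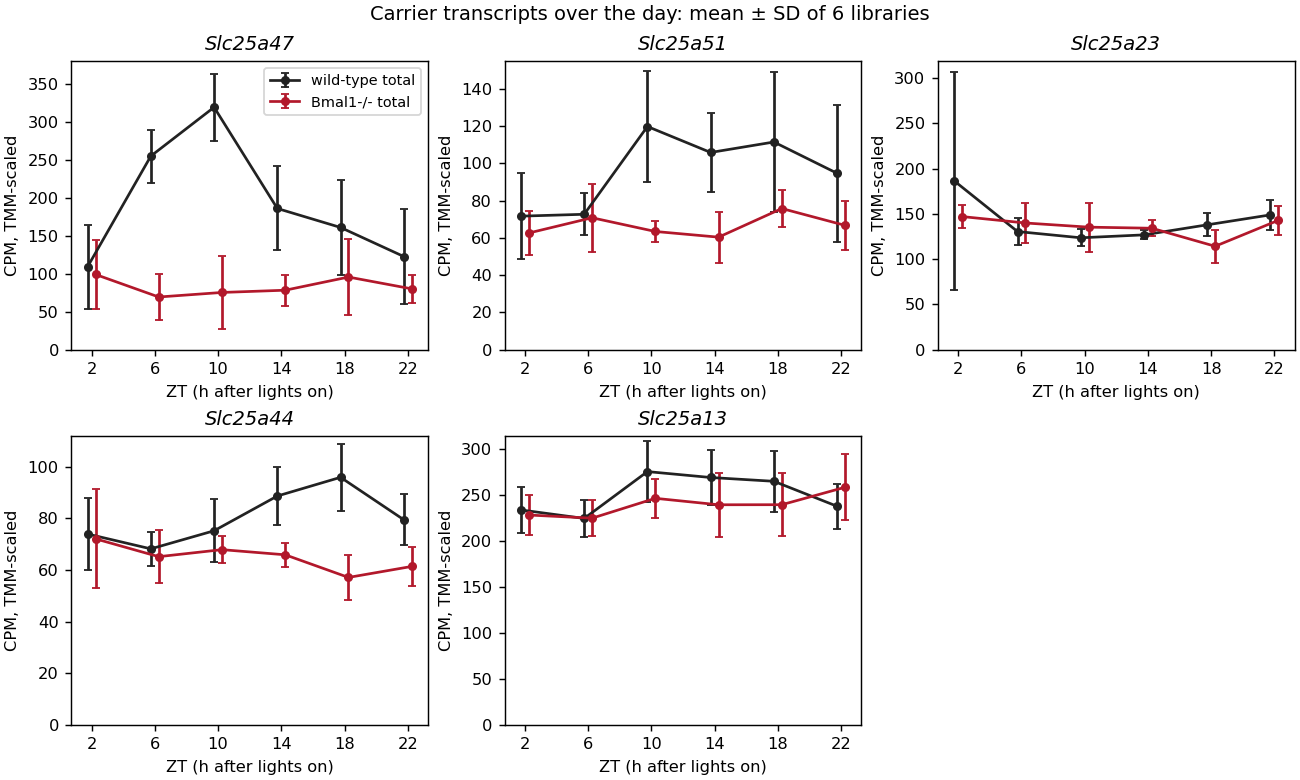
Mean and SD of 6 libraries in CPM at each time point, in wild-type and Bmal1-/- total RNA, for 5 of the 6 carriers with a rhythm in wild-type total RNA. Slc25a47 is at 109 CPM in the wild type at ZT2, climbs to 320 CPM at ZT10 and lies between 69.5 and 99.2 CPM without Bmal1, and the wide bar of Slc25a23 at ZT2 reflects 1 library at 431 CPM.

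Promoter sequence was looked at for the carriers because clock factors act through short DNA motifs: CLOCK and BMAL1 bind the E-box CACGTG, and REV-ERB and ROR receptors bind sites with the core AGGTCA. The 250 bases before each annotated start were available from RefSeq (GRCm38.p6) for 36 of the 48 members, in 46 windows. On either strand, CACGTG occurred in 7 of the 36 members and in 6.02% of all 32851 windows of that length. It was present in 2 of the 10 members with a window that were lower in Bmal1-/- liver and in 4 of the 20 other tested members. AGGTCA (or its reverse complement TGACCT) occurred in 4 of the 36 members (Slc25a34, Slc25a39, Slc25a45 and Slc25a47) and in 14% of all windows. Of the same 10 and 20 members it was in 3 and 1. The variant CACGTT was in 3 members (3.85% of all windows), and the D-box TTATGTAA in none (0.819% of all windows). A match describes the letters only and does not show that a factor binds. Members can have several windows where RefSeq gives several starts, and a member was counted if any of its windows matched. The counts of members and the shares of all windows are therefore not directly comparable.

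The windows shown are that of Slc25a47, the carrier with the largest Bmal1-/- difference and rhythm, with its TGACCT in capitals, and those of Slc25a13 and Slc25a1, a rhythmic carrier and a carrier near the threshold, with their CACGTG in capitals. Each is written 5′ to 3′ on the strand of the gene and ends at the base before a RefSeq start, the first one listed for that gene. The Slc25a47 window lies inside the annotated gene (chr12:108849833-108856815), and that of Slc25a13 lies partly inside its gene (chr6:6041218-6217304). The Slc25a47 window is chr12:108850879-108851128 on the plus strand, that of Slc25a13 chr6:6217174-6217423 on the minus strand and that of Slc25a1 chr16:17928220-17928469 on the minus strand.
Slc25a47: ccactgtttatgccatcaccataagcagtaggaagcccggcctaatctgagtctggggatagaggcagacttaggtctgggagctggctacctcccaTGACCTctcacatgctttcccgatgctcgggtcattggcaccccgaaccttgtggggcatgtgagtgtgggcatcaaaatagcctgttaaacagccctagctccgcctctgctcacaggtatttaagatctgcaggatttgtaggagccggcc
Slc25a13: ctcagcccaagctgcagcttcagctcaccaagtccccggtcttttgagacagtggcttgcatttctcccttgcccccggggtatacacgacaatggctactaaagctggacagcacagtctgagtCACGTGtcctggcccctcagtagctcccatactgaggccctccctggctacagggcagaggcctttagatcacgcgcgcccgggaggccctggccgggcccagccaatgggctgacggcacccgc
Slc25a1: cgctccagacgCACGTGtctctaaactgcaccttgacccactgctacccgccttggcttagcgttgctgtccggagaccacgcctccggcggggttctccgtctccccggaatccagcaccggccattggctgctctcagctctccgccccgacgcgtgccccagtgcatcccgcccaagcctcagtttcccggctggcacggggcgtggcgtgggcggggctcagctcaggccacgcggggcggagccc
The TGACCT of Slc25a47 begins 153 bases before the RefSeq start used. The CACGTG of Slc25a13 begins 125 and that of Slc25a1 239 bases before theirs.

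The second comparison set nuclear against total RNA of the wild type. It shows which carrier transcripts are more or less abundant in the nuclear fraction relative to other transcripts. Mitochondrially encoded RNA made up 5.122 to 13.038% of the counts in nuclear libraries and 13.078 to 19.653% in wild-type total RNA. The nuclear fraction thus also held RNA from outside nuclei, and the part of such RNA in the differences was not tested. Of 38 carriers tested, 13 were higher and 16 lower in nuclear RNA by the edgeR test, beside 83.8% of all genes (41.6% higher and 42.1% lower). The median log2 change was -0.04 for the carriers and -0.01 for all genes. Carriers of adenine nucleotides, phosphate and pyrimidine nucleotides were lower in 5 of 8 cases and higher in 2, with a median log2 change of -0.54. All 4 carriers of di- and tricarboxylates passed, 2 in each direction. Those of acylcarnitine, cofactors and metals split evenly, with 4 higher and 4 lower of 12.

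Slc25a46, a carrier-like protein of the outer membrane that acts in mitochondrial fission and contacts, was lowest in nuclear relative to total RNA. It ranged from 5.79 to 19.4 CPM (median 11.4) in nuclear and from 29.4 to 55.4 CPM (median 42.1) in total RNA, with no overlap. The log2 change was -1.86 (SE 0.06, edgeR adjusted p = 4.07e-39), lower at all 6 time points. The phosphate carrier Slc25a3 likewise did not overlap, at 87.6 to 262 CPM in nuclear (median 155) and 292 to 416 CPM in total RNA (log2 change -1.21, SE 0.07, edgeR adjusted p = 2.38e-25). The oxoglutarate/malate carrier Slc25a11 was the third without overlap (log2 change -0.89, SE 0.05). Slc25a21 (-1.69, SE 0.12) and the ADP/ATP carriers Slc25a4 (-1.22, SE 0.12) and Slc25a5 (-1.04, SE 0.09) were also lower.

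Mitoferrin 2, Slc25a28, was the most nuclear of the carriers with at least 50 counts. It ranged from 11.3 to 40.9 CPM (median 27.8) in nuclear and from 4.65 to 14.4 CPM (median 9.23) in total RNA, and only the lowest nuclear libraries reached the total RNA range. The log2 change was 1.46 (SE 0.08, edgeR adjusted p = 6.24e-27). Slc25a47 was higher by 0.98 (SE 0.15, edgeR adjusted p = 1.10e-08), with a nuclear range of 71.8 to 1035 CPM. Slc25a51 followed with 0.82 (SE 0.13) and Slc25a1 with 0.67 (SE 0.09, edgeR adjusted p = 2.99e-10). Low-count members were higher still or similar, with Slc25a53 at 2.48 (SE 0.14), Slc25a36 at 1.45 (SE 0.12) and Slc25a29 at 1.32 (SE 0.16), whose means were 20, 29 and 11 counts per library.

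Slc25a51 in nuclear RNA was spread widely, from 82.9 to 541 CPM (median 147). The highest value was that of the ZT22 library with Xist at 4363 CPM, and the other 5 libraries of that group lay between 102 and 177 CPM. The libraries with Xist were also above the other 5 of their groups in total RNA (162 against 60.2 to 102 CPM) and in polysomal RNA (94.8 against 18.8 to 43.4 CPM). In Bmal1-/- RNA the library with Xist, at 59.2 CPM, lay within the range of the others. Leaving out these libraries changed no call of the nuclear comparison among the carriers.

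Only Slc25a47 was rhythmic in nuclear RNA (1 of 35 carriers tested, 7 with an unadjusted p under 0.05, beside 5.99% of all genes called by edgeR). Its means ran from 232 ± 118 CPM at ZT22 and 259 ± 143 at ZT2 to 688 ± 251 CPM at ZT10. The ZT10 libraries (486 to 1035 CPM) all lay above those of ZT22 (71.8 to 427 CPM), while the highest ZT2 library reached 525 CPM. The fitted ratio was 3.03 (log2 1.60, SE 0.28) with a peak at ZT9.67 (edgeR adjusted p = 0.000404), and it was not called in replicates 1 to 3 alone. For no carrier did the nuclear rhythm differ from that of total RNA by edgeR: 0 of 38 passed, 0 had an unadjusted p under 0.05, DESeq2 called 0, and 0.0% of all genes were called.

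The third comparison set polysomal RNA, the transcripts on several ribosomes, against total RNA of the wild type. Of 37 carriers tested, 18 were higher and 6 lower by the edgeR test, beside 76.0% of all genes (38.8% higher and 37.2% lower). The median log2 change was 0.20 for the carriers and 0.02 for all genes. With median-ratio size factors in place of TMM, the median of all genes fell to -0.07, and 16 carriers were higher and 7 lower: Slc25a23 and Slc25a4 dropped out and Slc25a3 was lower. Of the 4 carriers of di- and tricarboxylates 3 were higher and 1 lower, and of the 7 amino acid carriers 5 were higher and 1 lower. Among the 12 carriers of acylcarnitine, cofactors and metals 6 were higher and 2 lower. The summed carrier level was 3891 ± 725 CPM in polysomal RNA (3151 to 5848). Erythroid transcripts were also more abundant there, with a median summed level of 8029 CPM (2346 to 19494) beside 2712 CPM (605 to 13055) in total RNA, and their part in these differences was not tested.

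Slc25a1 gained most. It ranged from 177 to 626 CPM (median 332) in polysomal and from 32.4 to 128 CPM (median 107) in total RNA (from 83.3 CPM without ZT2 replicate 4), so that every polysomal library lay above every total RNA library. It was 3.16-fold higher (log2 change 1.66, SE 0.08, edgeR adjusted p = 2.58e-29). Slc25a10 ranged from 99.9 to 663 CPM (median 203) in polysomal against 9.08 to 156 CPM (median 88.2) in total RNA (from 48.7 CPM without ZT2 replicate 4), and the ranges overlapped at the lower end (log2 change 1.34, SE 0.15, edgeR adjusted p = 1.02e-12). The size of this gain depended on the replicates. As given above, replicates 1 to 3 had the higher mean in total RNA and replicates 4 to 6 in polysomal RNA. By mean level the gain was therefore smaller in replicates 1 to 3, though Slc25a10 was called higher in both sets. The coenzyme A carrier Slc25a16 was 2.38-fold higher (1.25, SE 0.13), Slc25a47 2.20-fold (1.14, SE 0.15) and Slc25a44 2.04-fold (1.03, SE 0.07). Slc25a13 was 1.96-fold higher (0.97, SE 0.08) and so stood at 68.6 times the level of its partner Slc25a12, which was lower.

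Among the 6 lower carriers, 3 were lower by more than 1.5-fold. Slc25a21 ranged from 0.884 to 8.51 CPM (median 4.38) in polysomal and from 4.32 to 17.9 CPM (median 12.3) in total RNA (log2 change -1.40, SE 0.12, edgeR adjusted p = 1.60e-16). Slc25a51 ranged from 18.8 to 94.8 CPM (median 37.1) against 50.4 to 184 CPM (median 87.4), with a log2 change of -1.21 (SE 0.11, edgeR adjusted p = 1.13e-16). Slc25a12 fell by 0.86 on the log2 scale (SE 0.12, edgeR adjusted p = 3.77e-09). Slc25a21 and Slc25a12 were lower in nuclear RNA too, whereas Slc25a51 was higher there. The nuclear and polysomal comparisons share the wild-type total RNA libraries.

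In polysomal RNA 6 of 37 carriers had a rhythm by the edgeR test (11 with an unadjusted p under 0.05), beside 7.9% of all genes, with a median fitted ratio of 1.38 for the carriers and 1.36 for all genes. All but 1 of the 6 peaked in the dark phase, between ZT16.3 and ZT19.0: Slc25a1, Slc25a10, the glycine carrier Slc25a38, Slc25a39 and Slc25a44. Slc25a1 averaged 266 ± 62.7 CPM at ZT2 and 461 ± 120 CPM at ZT18 (n = 6 each), with ZT18 libraries from 340 to 626 CPM that overlapped the highest ZT2 library at 351 CPM. Its fitted ratio was 1.63 with a peak at ZT16.3 (edgeR adjusted p = 0.0200). Slc25a39 averaged 502 ± 130 CPM at ZT6 and 947 ± 326 CPM at ZT18, a ratio of 1.70 with a peak at ZT19.0 (edgeR adjusted p = 0.0122). Slc25a10 went from 171 ± 52.2 CPM at ZT2 to 389 ± 197 CPM at ZT18, a ratio of 2.12 (edgeR adjusted p = 0.0220). Slc25a38 went from 6.99 ± 3.66 CPM at ZT6 to 20.3 ± 7.95 CPM at ZT18, a ratio of 2.29 (edgeR adjusted p = 0.0159).

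Slc25a44 in polysomal RNA peaked at ZT18.6 with a ratio of 1.61 (edgeR adjusted p = 0.0169), from 123 ± 33.3 CPM at ZT6 to 210 ± 46.8 CPM at ZT18, and Slc25a47 at ZT11.8 with a ratio of 2.56 (edgeR adjusted p = 0.0154), with 226 ± 109 CPM at ZT2 and a high of 607 ± 249 CPM at ZT10. These are the carriers rhythmic in both total and polysomal RNA. Without polysomal replicate 1, the calls of Slc25a38, Slc25a44 and Slc25a47 were lost and Slc25a28 was gained, leaving 4, and replicates 1 to 3 alone gave none. The rhythm in polysomal RNA differed from that in total RNA for 0 of 37 carriers by edgeR, with 2 at an unadjusted p under 0.05 (Slc25a38 and Slc25a11) and 0 by DESeq2, and for 0.0% of all genes. The peaks that appear only in polysomal RNA are thus not shown to differ from total RNA.

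**Figure D4:**
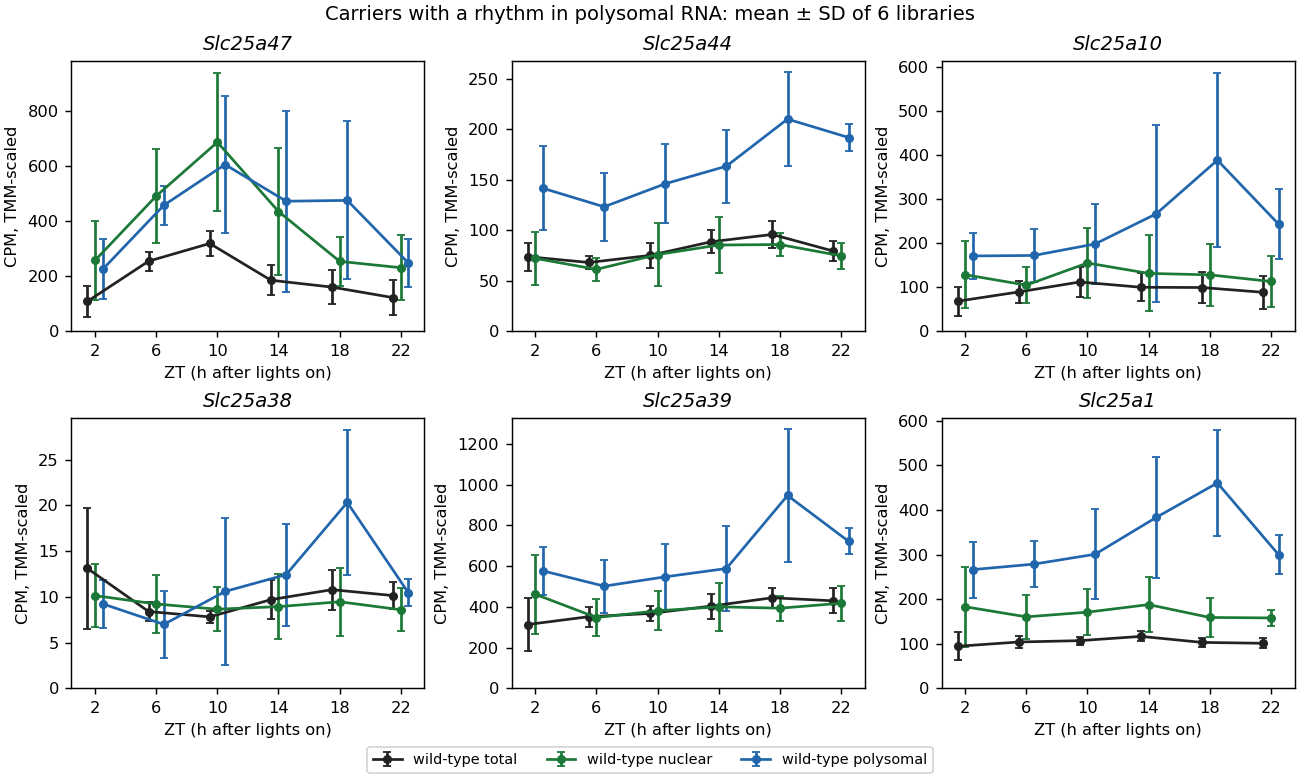
Mean and SD of 6 libraries in CPM at each time point, in wild-type total, nuclear and polysomal RNA, for the 6 carriers with a rhythm in polysomal RNA. Polysomal Slc25a10, Slc25a38, Slc25a39 and Slc25a1 stand highest at ZT18, at 389, 20.3, 947 and 461 CPM, and Slc25a47 stands highest at ZT10 in all 3 fractions.

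Transcripts of 1 gene can end at several polyadenylation sites, and the series was made to compare their use. The deposited site list placed 86 sites in 32 carriers. After a minimum of 5% of the gene's reads, 36 or 37 sites in 14 carriers could be tested per comparison. Site positions are those of the deposited list on mm10, and for 5 carriers (among them Slc25a37, Slc25a44, Slc25a46 and Slc25a51) the strand was taken from the side holding at least 95% of the site reads. Use differed between nuclear and total RNA at 28 of 36 sites (12 with a higher share in nuclear RNA) in 13 of 14 genes, beside 78.8% of all sites tested (35.7% with a higher share). Between polysomal and total RNA it differed at 25 of 37 sites (13 higher), beside 70.5% of all sites (33.3% higher), and between genotypes at 2 of 36 sites (1 higher), beside 8.98% (4.81% higher).

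The largest shift was in Slc25a51, on the minus strand of chr4. Its main site, chr4:45396045-45396220, lies 209 bases from the annotated end and took 73.5% ± 4.44 of the gene's site reads in total RNA (SD, n = 36, 61.6 to 83.2%). It took 28.8% ± 10.1 in nuclear RNA (13.99 to 62.3%). A site near the start of the gene, chr4:45407168-45407366, about 1.65 kb into it, took 17.6% ± 3.92 in total RNA (9.24 to 24.2%) and 66.5% ± 11.3 in nuclear RNA (30.6 to 83.6%). The ranges of this upstream site did not overlap between the fractions, and the log2 change of its share was 1.92 (SE 0.07), while that of the main site was -1.38 (SE 0.08).

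On the CPM scale, the upstream site of Slc25a51 rose from 16.5 ± 7.98 in total to 118 ± 88.0 in nuclear RNA, whereas the main site was at 66.6 ± 22.1 and 42.8 ± 14.1 CPM. The higher nuclear level of the gene given above lay at the upstream site. In polysomal RNA the upstream site took 20.03% ± 12.2, a share that did not pass the test against total RNA (edgeR adjusted p = 0.314), and was at 7.14 ± 6.73 CPM. The main site took 54.2% ± 13.4 there, at 19.1 ± 10.3 CPM. A middle site, chr4:45398454-45398533, went from 4.59% ± 1.26 in total to 10.1% ± 6.79 in polysomal RNA. In Bmal1-/- total RNA the upstream and main sites took 20.3% ± 3.86 and 71.8% ± 4.86, and neither passed the test against wild type.

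Slc25a44, on the minus strand of chr3, had the same direction of shift over a shorter distance. Its site nearest the annotated end, chr3:88410494-88410705, took 65.5% ± 4.92 of the reads in total RNA and 24.3% ± 6.61 in nuclear RNA, with no overlap (56.1 to 77.0% and 12.1 to 39.4%). The site chr3:88411666-88411795 took 21.0% ± 3.73 and 52.4% ± 9.20, also with no overlap. In polysomal RNA the shares were in between, at 50.5% ± 8.78 and 33.1% ± 6.75. The gene's nuclear level did not differ from total RNA (log2 change -0.12, SE 0.07, edgeR adjusted p = 0.135), while the end site was at 51.7 ± 8.70 CPM in total and 17.7 ± 5.93 CPM in nuclear RNA.

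**Figure D5:**
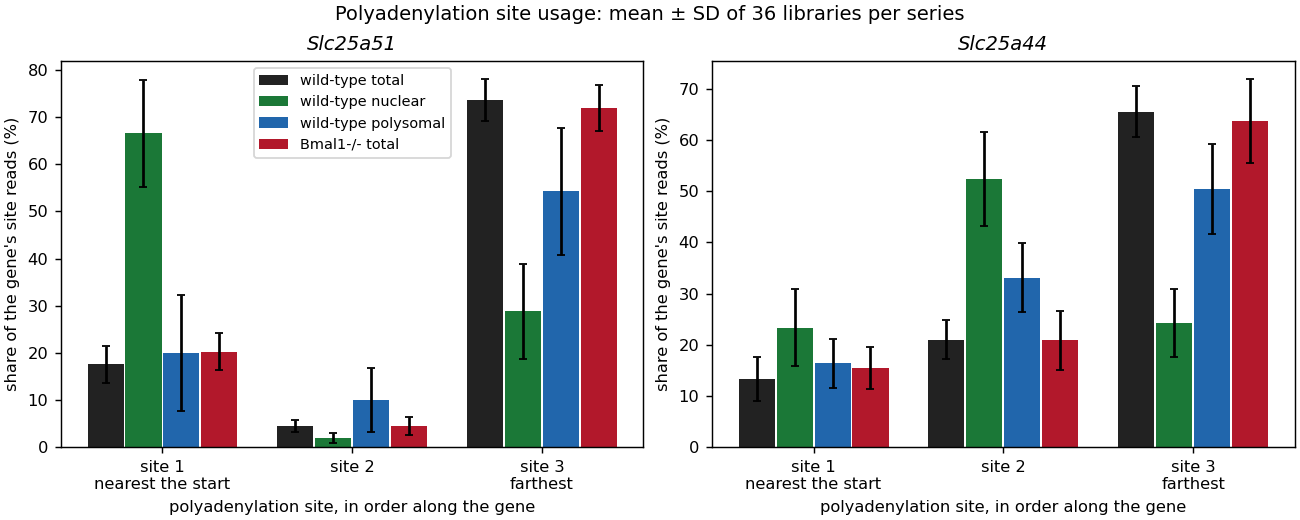
Share of the gene's site reads, in percent, at each site with at least 4% in wild-type total RNA, for Slc25a51 and Slc25a44, ordered from the start to the end of the gene; bars are means of 36 libraries per series with their SD. In Slc25a51 the site nearest the start takes 66.5% in nuclear and 17.6% in total RNA.

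In other carriers the shifts were smaller or went towards other sites. In Slc25a16 the site chr10:62944404-62944475 took 45.3% ± 12.1 in total, 76.3% ± 9.76 in nuclear and 62.0% ± 9.59 in polysomal RNA. In Slc25a13 the site chr6:6041212-6041394 took 69.4% ± 7.14 in total and 92.0% ± 4.35 in nuclear RNA. In Slc25a12 a site used for 12.8% ± 4.68 in total RNA, chr2:71274741-71274766, took 38.4% ± 24.7 in polysomal RNA, where the gene had few reads. The sites that differed without Bmal1 were both in Slc25a46: the main site chr18:31581581-31581746 went from 82.8% ± 3.56 to 74.9% ± 8.61 (edgeR adjusted p = 0.000230) and chr18:31581923-31581969 from 7.61% ± 2.23 to 11.8% ± 4.70 (edgeR adjusted p = 0.000365). Neither was called in replicates 1 to 3 alone. No carrier site had a daily rhythm of use in wild-type total RNA by edgeR (0 of 36, beside 0.357% of all sites; 1 site had an unadjusted p under 0.05; no other tool was run).

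Genes that work beside the carriers were counted from lists chosen with earlier results of these data known. Of 12 genes of the import machinery, 2 differed in Bmal1-/- liver: the receptor Tomm20 was higher (log2 change 0.35, SE 0.06) and Timm29 lower (-0.14, SE 0.06). In polysomal RNA 10 of these 12 were higher and 2 lower, and in nuclear RNA 3 were higher and 8 lower. Of all genes 44.1% were called in Bmal1-/-, 76.0% in polysomal (38.8% higher and 37.2% lower) and 83.8% in nuclear RNA (41.6% higher and 42.1% lower). The 11 of 12 called in nuclear RNA in either direction are near that background. Their split by direction is less even than that of all genes and was not tested. The small intermembrane chaperone Timm9 was lower in both, by -1.98 (SE 0.07) in nuclear and -1.41 (SE 0.07) in polysomal RNA, and was rhythmic in total RNA with a ratio of 1.46 and a peak at ZT14.7. Of 3 tested carrier-type proteins with other symbols, the uncoupling protein Ucp2 was lower without Bmal1 (-0.60, SE 0.12), and Mtch1 and Mtch2 were higher (0.14 and 0.18).

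Of 16 tested other transporters of mitochondrial membranes, 10 were lower and 3 higher in Bmal1-/- liver, 4 were rhythmic in wild-type total RNA, and 1 differed in rhythm, the calcium uniporter Mcu (edgeR adjusted p = 0.0314), whose wild-type ratio was 2.34 with a peak at ZT2.39. Of all genes 21.7% were lower and 22.4% higher in Bmal1-/- liver, 18.9% were rhythmic and 5.18% differed in rhythm, so the rhythmic count of these transporters is near the background. Of 16 enzymes that make or use the carried substrates, 8 were lower and 2 higher, beside the same 21.7% and 22.4% of all genes. Alas1, which starts heme synthesis in the matrix, had the widest rhythm of these, with a ratio of 7.12 and a peak at ZT13.3, and its rhythm differed between genotypes (edgeR adjusted p = 0.0112). Cpt1a, which makes the acylcarnitine that Slc25a20 carries, had a ratio of 1.79 with a peak at ZT11.5. Slc25a20 itself was not called rhythmic in wild-type total RNA.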

How the data were processed

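Gene counts and polyadenylation-site counts, whole numbers per library, were deposited by the authors. Per the submitters' processing notes STAR 2.4.2a, HOMER, edgeR and the builds mm10 and GRCm38.p5 were used, with no role given, and per the labels the libraries were QuantSeq 3′ libraries. Site starts and ends were taken from the authors' deposited site list. Counts as deposited were fitted with edgeR 4.0.16 in R 4.3.3 (quasi-likelihood test, TMM factors, robust dispersions), keeping genes with a mean of 10 counts or more. P-values were adjusted by Benjamini-Hochberg over all genes or sites tested, with a threshold of 0.05. A level was the mean of the 6 time-point means. A rhythm was a 24 h cosine and sine within 1 series, and a difference in rhythm the interaction with series. Site use was fitted with the gene total as offset, for sites with 5% or more of a gene's reads. Peak-to-trough is the fitted ratio, and its SE is on the log2 scale.

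The members and the lists of other genes were chosen with earlier results of these data known. Genes were named if among the 6 highest in wild-type total RNA, the 4 largest called rises and falls per comparison with a mean of 50 counts or more, called rhythmic or different in rhythm, holding a site among the largest shifts in use, below 1 CPM throughout, or sharing a substrate with another member. Slc25a29, Slc25a36, Slc25a40 and Slc25a53, among others of the called members, were named after their values were seen. The fits were tested on simulated data. Alternatives were other size factors, no filter, DESeq2 1.42.0, replicates 1 to 3 or 4 to 6, all 4 series in one fit and a replicate block. Leaving out libraries with Xist, or wild-type ZT2 replicate 4, was chosen after the data were seen. Values of 1 member are not reported here, though it is counted among the members. CPM are for display.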

Additional observations from a re-analysis of the deposited data

Results flagged for a closer look

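In groups of 6 libraries, a library was counted as far from the others when its gap to the nearest one, divided by the group's range, was above Dixon's 95% critical value for 6 samples. The check covered 144 groups, the rhythmic carriers of wild-type total RNA in each series and time point, and picked out 11. Chance picks out about 1 in 20 groups (5%). No cause was tested for any of them.

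Slc25a51, the NAD carrier, accounted for 4. In total RNA at ZT18 replicate 5 was at 184 CPM, against 109 for the next (ratio 0.720), and in nuclear RNA at ZT18 replicate 5 was at 474 against 216 CPM (ratio 0.701). In nuclear RNA at ZT22 replicate 5 was at 541 against 177 CPM (ratio 0.830), and in polysomal RNA at ZT22 replicate 1 was at 94.8 against 43.4 CPM (ratio 0.677). Both ZT22 libraries are ones with Xist, and neither ZT18 library is.

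Slc25a23, the ATP-Mg/phosphate carrier, had 3. In total RNA at ZT2 replicate 4 was at 431 against 149 CPM (ratio 0.898). At ZT22 replicate 1 was low, at 116 against 152 CPM (ratio 0.764), and in polysomal RNA at ZT22 replicate 4 was at 189 against 155 CPM (ratio 0.632). Slc25a44, the branched-chain amino acid carrier, also had 3, all in high libraries: replicate 3 of total RNA at ZT14 (111 against 88.0 CPM, ratio 0.708), replicate 3 of nuclear RNA at ZT2 (124 against 73.4 CPM, ratio 0.690) and replicate 6 of Bmal1-/- RNA at ZT6 (85.1 against 66.2 CPM, ratio 0.659). Slc25a47 had 1, replicate 3 of nuclear RNA at ZT6 (822 against 530 CPM, ratio 0.643).

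The rhythms of Slc25a44 and Slc25a47 differed between wild-type and Bmal1-/- total RNA by the test of the difference itself (edgeR adjusted p = 0.00542 and 0.0132).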

How the results depend on the processing

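Of the values of single carriers under the alternatives, 593 kept their direction and side of the threshold, 45 lost a call, 16 gained one and 1 reversed: the Bmal1-/- log2 change of Slc25a21, -0.013 in replicates 1 to 3. The counts of carriers differing in level stayed within 1.5 times in every alternative, but the carriers called changed. Of the 20 called between genotypes, 14 were among the 17 called in replicates 1 to 3 and 13 among the 18 in replicates 4 to 6. Slc25a4, Slc25a11 and Slc25a16 were gained in the first set, and Slc25a3, Slc25a12, Slc25a22, Slc25a28 and Slc25a34 in the second. Counts of rhythms did not stay within 1.5 times. In wild-type total RNA 6 became 2 in replicates 4 to 6 and 2 with all 4 series in one fit. In nuclear RNA 1 became 0 in replicates 1 to 3 and 2 with DESeq2 or all 4 series. In polysomal RNA 6 became 0 in replicates 1 to 3 and 13 with all 4 series. Differences in rhythm between genotypes went from 2 to 0 in replicates 1 to 3, 1 in replicates 4 to 6 and 1 with all 4 series. Sites differing between genotypes went from 2 to 0 with a 10% share or in replicates 1 to 3, and 4 in replicates 4 to 6. The cause was not tested, but fits on 3 replicates hold fewer libraries. For carriers of few counts, depth limits the precision.

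The labels do not say that replicate numbers mark shared animals, and the comparisons were planned without pairing. Any libraries of the same animal were thus treated as independent in the main fits. Correlations of deviations between same-numbered libraries averaged 0.065 for Bmal1-/-, 0.294 for nuclear and -0.11 for polysomal against total RNA, with 15, 34 and 0 of 36 above 0.1 and 12, 30 and 0 closest to their own number, a hint from the data that nuclear and total RNA of a number belong together. With a replicate block the carriers differing in level were 22, 30 and 24 (31 in nuclear and 25 in polysomal RNA with a block for each time point and number), and those with a rhythm 9 in total, 2 in nuclear, 10 in polysomal and 0 in Bmal1-/- RNA; 2 differed in rhythm between genotypes.

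Over all genes, rhythms in total RNA went from 2260 to 621 in replicates 4 to 6 and 1017 with all 4 series, and in nuclear RNA from 669 to 174 in replicates 1 to 3. In polysomal RNA 845 became 115 in replicates 1 to 3, 2733 with all 4 series and 1505 with the block. Differences between genotypes went from 626 to 236, 200 and 186 (replicates 1 to 3, replicates 4 to 6, all 4 series).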
